A study of Mus musculus with 4 samples.

Results

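The 33 genes described here encode members of the enzyme families that add acetyl groups to histones or remove them, including some with other main substrates. They also include *Brd2* and *Brd3*, which encode proteins that bind acetylated histones. They were chosen by gene symbol in the transcript table of a *Setd2* knockdown experiment, where they had 77 of the 34200 tested transcripts and 33 of the 21945 tested genes. NIH/3T3 cells, a line of immortalised mouse fibroblasts, had been transfected with *Setd2*-specific siRNAs (KD) or with Scrambled siRNA (WT) at 10 nM, and polyadenylated RNA was sequenced after 48 h in 2 KD and 2 WT libraries. The sources speak of independent transfections, but do not say which one each library came from. The KD group is a transient and partial loss of a transcript in 1 cell line, and both groups carry siRNA and transfection reagent. SETD2 is the methyltransferase that places H3K36me3 on the bodies of transcribed genes.

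The values used here cover the 4 libraries together. A level is the authors' mean over the 4 libraries, turned back from the natural log into normalised estimated counts, and it holds KD and WT alike. The spread is the SD over the 4 libraries on the log2 scale, from the authors' variance. No level of a single library or group, no direction of change and no test of KD against WT is given, because the authors' own comparison of the groups was not used. The spread still sets a limit: with 2 libraries in each group, the squared difference between the KD and WT means of the log values cannot exceed 3 times the variance over the 4 libraries. This limit is written below as the largest difference allowed, in log2 units and in either direction. It says how far apart KD and WT can be at most, not how far apart they were.

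*Setd2*, the target of the siRNAs, had 1 tested transcript (ENSMUST00000153838.7), with a level of 1844 normalised estimated counts. Its spread over the libraries was 1.15 on the log2 scale, at the 99.8th percentile of transcripts of similar level, and the largest difference allowed was 2.00. All 12 fibroblast markers that were looked up were among the genes tested, with a median summed level of 25604 normalised estimated counts. The epithelial, leukocyte, endothelial and neuronal markers that were found among the tested genes had median summed levels of 173, 30.3, 29.4 and 54.3, respectively. The leukocyte marker with the highest level per length was *Cd68*, with a summed level of 343.

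Acetylation of lysines on histone tails is placed by several families of acetyltransferases, is removed by zinc-dependent deacetylases of classes I, II and IV and by the NAD-dependent sirtuins, and is bound by bromodomains such as those of the BET proteins. Deacetylases of class I act in the nucleus in large corepressor complexes, while those of class IIa move between nucleus and cytoplasm and have weak catalytic activity of their own. Deacetylation in transcribed gene bodies has been linked to H3K36 methylation, best known from budding yeast, where a deacetylase complex is recruited to or activated on nucleosomes that carry the mark.

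All 33 genes had at least 1 tested transcript, and 31 of them lay above the median of all genes in level per kilobase. The median gene of the set had 561 normalised estimated counts per kilobase of transcript, against 127 for all genes tested. *Brd2* was the highest with 7137 counts per kilobase, followed by *Hdac1* with 4124, *Hat1* with 4089 and *Hdac2* with 3186. *Sirt5* and *Hdac9* were the lowest, with 43.1 and 25.8 counts per kilobase, so that the set covered a 276-fold range of level. In the plot of levels by gene, 9 of the 32 gaps between neighbours were larger than the spread of both leading transcripts combined, where the leading transcript is the one with the highest level of its gene. The order of *Hdac1* and *Hat1*, of *Kat2a* and *Sirt2*, and of the genes between *Kat6a* and *Hdac11* was within that spread. So were the gaps of *Sirt5* to *Ncoa1* above it (2.11 log2 units) and to *Hdac9* below it (0.74), with a spread of 3.82 for the leading *Sirt5* transcript.

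**Figure D1:**
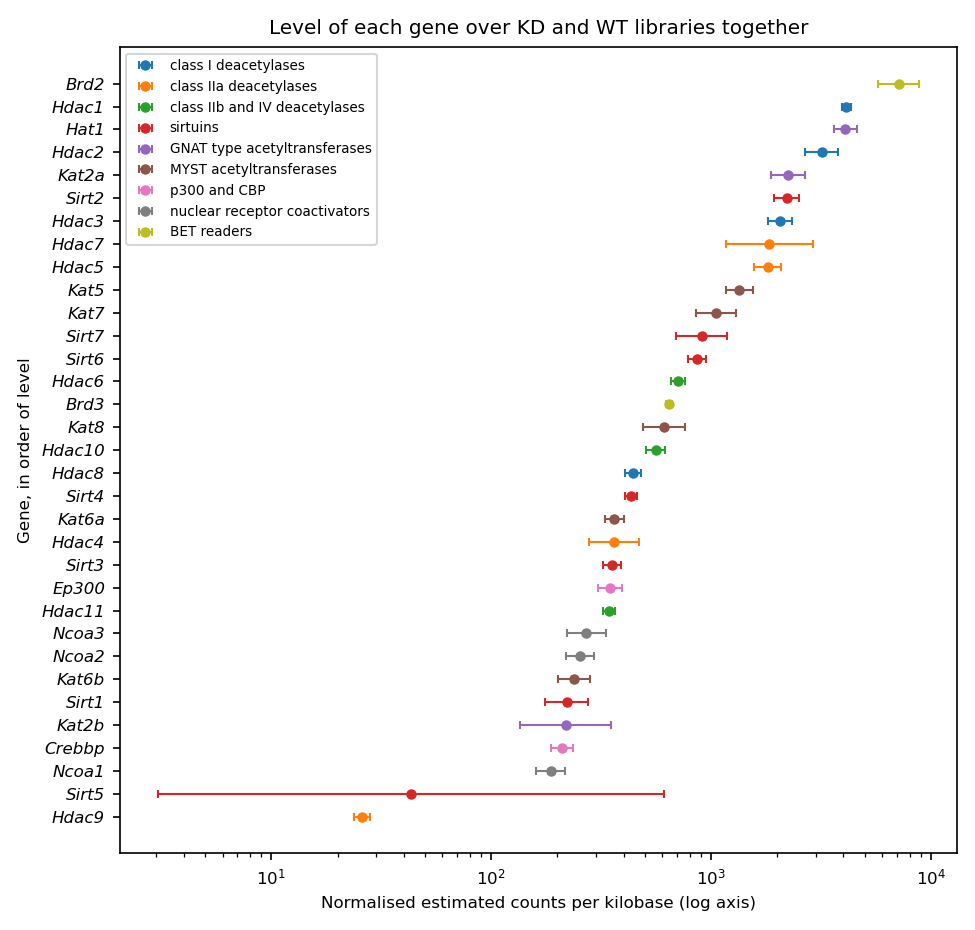
Level of each of the 33 genes, in normalised estimated counts per kilobase summed over tested transcripts (horizontal log axis), with genes in order of level. Points are the level over the 2 KD and 2 WT libraries together, bars are 1 SD over the 4 libraries of the leading transcript alone, and colours give the role. *Brd2* lies at 7137 and *Hdac9* at 25.8, and the bar of *Sirt5* is the widest.

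Of the summed level per kilobase of the 33 genes, class I deacetylases held 24.7%, BET readers 19.6% and the GNAT type acetyltransferases 16.5%. The sirtuins held 12.7%, class IIa deacetylases 10.2% and the MYST acetyltransferases 9.10%. The classes IIb and IV together held 4.06%. The large coactivators stood at the low end per kilobase, with 1.79% for the nuclear receptor coactivators and 1.41% for p300 and CBP. Without division by length, p300 and CBP had a summed level of 5460, classes IIb and IV 5155 and the nuclear receptor coactivators 4909. These groups are unequal, from 2 genes for p300 and CBP to 7 sirtuins.

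*Hdac1* and *Hdac2*, the paired catalytic subunits of the NuRD, SIN3 and CoREST complexes, were the highest deacetylase genes per kilobase, although *Hdac7* and *Hdac5* had higher summed levels than *Hdac2*. The only tested *Hdac1* transcript lies on chromosome 4 (chr4:129516104-129542713, minus strand, GRCm38) and had a level of 8404 with a spread of 0.07, at the 8.54th percentile of transcripts of similar level. The largest KD to WT difference allowed for *Hdac1* was 0.11. *Hdac2* on chromosome 10 (chr10:36974544-37001889, plus strand) had a leading transcript with a level of 6203, a spread of 0.25 and a largest difference allowed of 0.42. The *Hdac2* spread was therefore wider than that of *Hdac1* at a similar level. *Hdac3*, the catalytic subunit of the NCoR and SMRT corepressors, had a level of 4184 and a spread of 0.19. *Hdac8*, a class I enzyme that also deacetylates cohesin, was lower, with a level of 853 and a spread of 0.12. All 4 class I leading transcripts had a largest difference allowed under 0.5, against 52.6% of the leading transcripts of all genes.

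Class IIa was uneven. *Hdac7* and *Hdac5* had summed levels of 7422 and 7166, *Hdac4* had 2905 and *Hdac9* had 200.2. The *Hdac7* transcripts stood out by their spread, from 0.35 to 5.41, and the leading one (ENSMUST00000119670.7, level 2064, spread 0.66) was at the 97.8th percentile of transcripts of similar level. Its largest difference allowed was 1.14. *Hdac4* had 99.1% of its level in 1 transcript, with a spread of 0.37 and a largest difference allowed of 0.64. A minor *Hdac4* isoform (ENSMUST00000008995.14) with a level of 24.9 had a spread of 4.33. *Hdac9* was low but steady, with a spread of 0.13 for its leading transcript.

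The remaining classical deacetylases varied least. *Hdac6*, the tubulin deacetylase, had a leading transcript with a level of 2199.8 and a spread of 0.11. *Hdac10*, which acts on polyamines, had 1269.8 and 0.15, and *Hdac11*, the class IV enzyme, had 912 and 0.09. None of the 5 transcripts of these 3 genes lay above the median variance of transcripts of similar level, and their leading transcripts allowed a difference of 0.15 to 0.25 at most.

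Among the sirtuins, *Sirt2*, mostly a cytoplasmic deacetylase, had the highest level per kilobase (2207), followed by the nuclear *Sirt7* (907) and *Sirt6* (863). *Sirt1*, the best known nuclear sirtuin, had 220.3 counts per kilobase, below the mitochondrial *Sirt4* (431) and *Sirt3* (354). The leading *Sirt7* transcript had a level of 1357 and a spread of 0.39, at the 87.6th percentile, which allowed a difference of up to 0.67. *Sirt4* was steady, with a level of 730.4 and a spread of 0.09. *Sirt5*, the mitochondrial desuccinylase, was split between 3 transcripts with levels of 25.8, 23.5 and 20.7. Both higher ones had spreads of 3.82 and 3.83, while the third had 0.44. Repeated assignment of the same reads to the 3 transcripts gave SDs of 2.70, 2.07 and 0.41, so their split is uncertain. *Sirt5* therefore had no transcript that was both its highest and steady.

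Of the GNAT type acetyltransferases, *Hat1*, which acetylates newly made histone H4, had a summed level of 6514, and *Kat2a* (GCN5), the catalytic subunit of SAGA and ATAC, had 6847. *Kat2b* (PCAF), the paralogue of *Kat2a*, had a level of 1017 in its only tested transcript, ENSMUST00000000724.14 on chromosome 17 (chr17:53566971-53672720, plus strand). The *Kat2b* spread of 0.69 was at the 97.1st percentile of transcripts of similar level and allowed a difference of up to 1.19, the largest among the 8 genes with 1 tested transcript. Read assignment contributed little to it, with an SD of 0.05 from repeated assignment of the same reads. *Kat2a* had spreads of 0.26 and 0.28 in its 2 transcripts, which allowed 0.44 and 0.49. The *Hat1* leading transcript had a spread of 0.17.

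Among the MYST acetyltransferases, *Kat5* (TIP60) led with 1344 counts per kilobase, followed by *Kat7* (HBO1) with 1054 and *Kat8* (MOF), the H4K16 acetyltransferase, with 612. *Kat6a* and *Kat6b*, which acetylate histone H3, had 363 and 239. The only tested *Kat5* transcript had a level of 2896 and a spread of 0.20. The spread of the leading transcripts lay between 0.14 for *Kat6a* and 0.32 for *Kat8*. Of these leading transcripts, that of *Kat8* allowed a difference of up to 0.56 and that of *Kat7* up to 0.52. The *Kat6b* transcripts ENSMUST00000182405.8 and ENSMUST00000182855.7, with 32.0% and 30.1% of that gene's level, allowed 1.10 and 1.18. Of the 11 MYST transcripts, 4 allowed 1 or more, against 22.8% of all transcripts. In all, 10 of the 11 MYST transcripts had a variance above the median of transcripts of similar level.

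*Ep300* and *Crebbp*, which encode the acetyltransferases of H3K27, had similar spreads in their leading transcripts, 0.18 and 0.17, at levels of 3332 and 1758. The largest differences allowed were 0.31 and 0.29. The nuclear receptor coactivators *Ncoa1*, *Ncoa2* and *Ncoa3* had summed levels of 1317, 1847 and 1746, with spreads of 0.22, 0.21 and 0.30 in their leading transcripts. All 5 genes lay between 187 and 348 counts per kilobase.

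The BET genes differed from each other in level and in spread. *Brd2* on chromosome 17 had a summed level of 22631, with 59.8% in ENSMUST00000095347.11 and 33.6% in ENSMUST00000025193.12. Per kilobase these shares were 72.5% and 22.9%. The second has 3 blocks of additional sequence in the annotation, the largest of 1295 bases. Both transcripts were matched to another version of their identifier, so the lengths and blocks used may differ from those of the tested versions. The spreads of both *Brd2* transcripts, 0.31 and 0.42, were at the 80.8th and 92.9th percentiles of transcripts of similar level. *Brd3* on chromosome 2 (chr2:27445579-27475686, minus strand) had a leading transcript with a level of 2961 and a spread of 0.04. This was the narrowest spread of all 77 transcripts, at the 3.63rd percentile, and it allowed a difference of at most 0.08.

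Isoforms divided the level of many of these genes. Several transcripts were tested for 25 of the 33 genes (75.8%), against 31.8% of all genes. The 33 genes also had a higher median summed level, 2128 against 221, and genes of similar level were not compared for this. Among the 25 genes with several tested transcripts the leading transcript held a median of 74.5% of the summed level, and 8 of them had 90% or more in it. Shares are of counts and, unless given per kilobase, were not divided by transcript length. The leading transcript held less than 50% for *Hdac5*, *Hdac7*, *Sirt5* and *Kat6b*, and the plot of shares by gene shows these as the most divided bars.

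**Figure D2:**
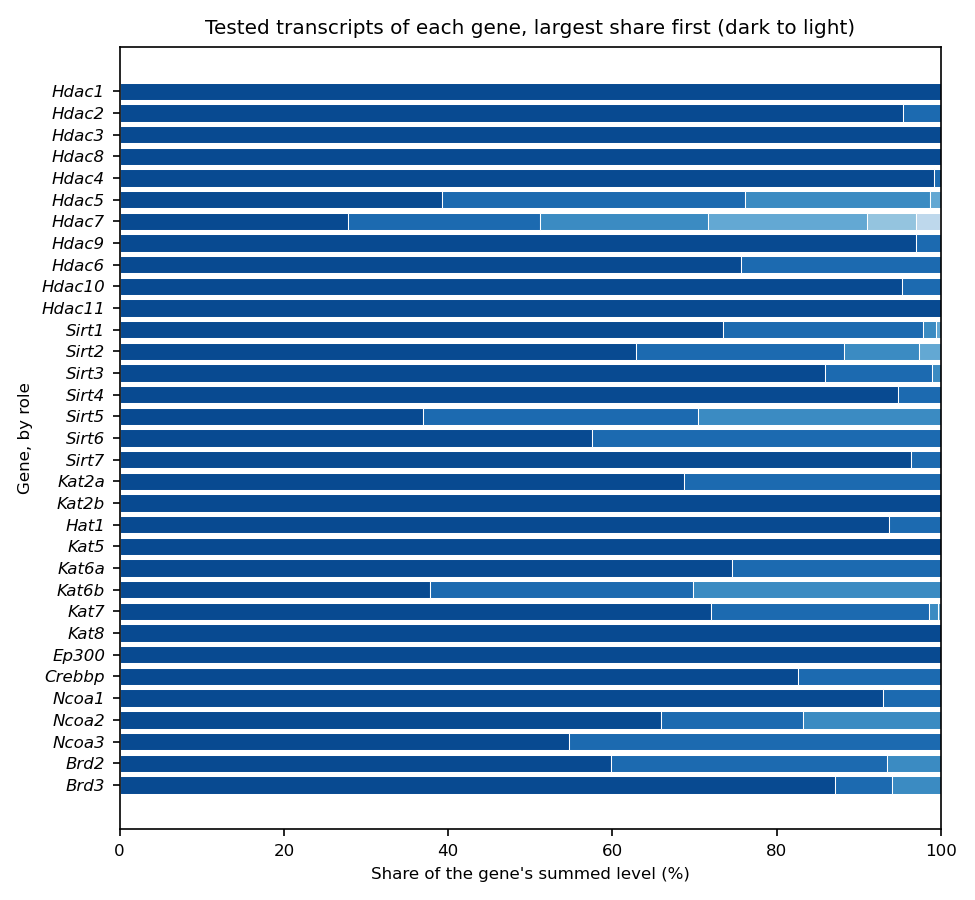
Share of each gene's summed level (horizontal axis, %) in its tested transcripts, with genes by role and segments from the largest share (dark) to the smallest (light). *Hdac7* is divided most finely, with 27.8% in its leading transcript, and 8 genes are a single bar of 100%.

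In *Kat2a*, *Ncoa3* and *Hdac5*, a pair of transcripts with 10% or more of the level differed by 3 coding bases at a splice junction. The sequences are shown because the optional bases read CAG and open an exon in the printed transcripts of all 3 genes. The reading frame is kept. Coding sequence around the junction comes from the GENCODE M21 transcripts of GRCm38, 5′ to 3′, with the optional bases in capitals. They lie at chr11:100708983-100708985 on the minus strand for *Kat2a*, at chr2:166068329-166068331 on the plus strand for *Ncoa3* and at chr11:102218488-102218490 on the minus strand for *Hdac5*.
Kat2a ENSMUST00000103118.3: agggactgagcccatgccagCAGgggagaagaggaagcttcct
Kat2a ENSMUST00000006973.11: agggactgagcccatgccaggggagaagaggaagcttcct
Ncoa3 ENSMUST00000088095.5: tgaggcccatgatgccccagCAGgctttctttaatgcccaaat
Ncoa3 ENSMUST00000109252.7: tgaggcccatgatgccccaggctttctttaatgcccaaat
Hdac5 ENSMUST00000107152.8: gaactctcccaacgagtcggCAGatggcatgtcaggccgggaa
Hdac5 ENSMUST00000107150.7: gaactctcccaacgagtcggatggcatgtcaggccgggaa

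The *Kat2a* transcript with the additional CAG had a level of 2146, or 31.3% of the gene, and the one without had 4702, or 68.7%. These *Kat2a* transcripts differ by nothing else in the annotation, and the SD from read assignment was 0.11 and 0.05 on the log2 scale. In *Ncoa3*, the transcript with CAG held 45.3% and the one without held 54.7%, but the former also has 1772 more bases at its 3′ end. In *Hdac5*, the transcript with CAG held 39.2% and the compared one without it held 22.5%, and the latter also has 4 more bases near the end of the coding sequence. Within each printed pair, the CAG-containing transcript was thus the lesser one in *Kat2a* and *Ncoa3*, and the greater one in *Hdac5*.

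Whole coding blocks also distinguished abundant isoforms. *Kat7*, *Hdac7*, *Sirt1* and *Crebbp* are shown because the block in capitals is a multiple of 3 bases and separates transcripts with 10% or more of the level. The *Kat7* block of 90 bases lies at chr11:95291520-95291609 on the minus strand. *Hdac7* has blocks of 72 bases at chr15:97809968-97810039 and of 111 bases at chr15:97808660-97808770, both on the minus strand. The *Sirt1* block of 117 bases is at chr10:63336980-63337096 and the *Crebbp* block of 114 bases at chr16:4137366-4137479, both on the minus strand. Each is printed 5′ to 3′ with 12 flanking bases in lower case.
Kat7: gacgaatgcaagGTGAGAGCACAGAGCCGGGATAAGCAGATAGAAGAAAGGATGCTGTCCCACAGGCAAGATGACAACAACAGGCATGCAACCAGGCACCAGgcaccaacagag
Hdac7 first block: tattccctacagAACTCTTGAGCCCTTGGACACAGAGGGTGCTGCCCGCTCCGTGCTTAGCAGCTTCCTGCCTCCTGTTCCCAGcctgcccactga
Hdac7 second block: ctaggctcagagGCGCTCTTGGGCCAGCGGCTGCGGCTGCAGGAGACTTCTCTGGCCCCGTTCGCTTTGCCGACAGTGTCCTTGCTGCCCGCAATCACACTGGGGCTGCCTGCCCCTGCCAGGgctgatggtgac
Sirt1: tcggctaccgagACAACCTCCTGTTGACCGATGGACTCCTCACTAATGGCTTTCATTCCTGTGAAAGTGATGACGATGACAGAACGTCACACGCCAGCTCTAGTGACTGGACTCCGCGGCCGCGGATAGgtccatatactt
Crebbp: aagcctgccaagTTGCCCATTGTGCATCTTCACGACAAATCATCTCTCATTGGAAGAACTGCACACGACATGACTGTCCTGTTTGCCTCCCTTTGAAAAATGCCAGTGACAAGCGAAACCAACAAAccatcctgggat

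The leading *Kat7* transcript held this block and 72.1% of the level, and a transcript that differs only by its absence held 26.4%, with SDs from read assignment of 0.06 and 0.15. The leading *Hdac7* transcript has neither block, with 27.8%, while ENSMUST00000088402.11 has the first block with 23.3%. ENSMUST00000116409.8 and ENSMUST00000118294.7 have both *Hdac7* blocks, with 20.5% and 19.4%. For *Sirt1*, 73.4% was in the transcript with the block and 24.4% in the one without, but the SD from read assignment of the latter was 2.10. For *Crebbp*, 82.6% was in the transcript with the block. The one without held 17.4%, or 22.7% per kilobase, and also lacks 2373 bases at the 3′ end and 584 at the 5′ end. Its SD from read assignment was 1.40. Read assignment was thus less certain for the lesser isoforms of *Sirt1* and *Crebbp* than for those of *Kat7* and *Kat2a*.

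Other abundant isoforms differed at their start or by longer blocks. *Sirt6* was divided between ENSMUST00000042923.8 with 57.5% and ENSMUST00000119324.7 with 42.5%, which have different first exons, and both spreads were narrow (0.14 and 0.16). *Sirt2* had 62.8% in its leading transcript and 25.3% in ENSMUST00000072965.4, with 1056 and 1167 coding bases, and the spreads were 0.19 and 0.45. In *Kat6a* and *Hdac6*, the coding sequences of both isoforms have the same number of bases, 6009 and 3447, and the isoforms differ outside them. The leading *Kat6a* transcript held 74.5% and the leading *Hdac6* transcript held 75.6%. In *Ncoa2*, a transcript with a coding block of 207 bases that the leading one lacks (ENSMUST00000006037.12) held 16.8%, with a spread of 0.14. This transcript lacks 3316 bases that the leading one has at its 3′ end, and it held 24.9% per kilobase. In *Sirt3*, a transcript with a coding block of 156 bases (ENSMUST00000211179.1) held 13.1%, at a level of 66.6. *Kat6b* was divided into 37.8%, 32.0% and 30.1%, and its leading transcript alone has a coding block of 327 bases.

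Over the leading transcripts of the 33 genes, the median spread was 0.20, against 0.27 for the leading transcripts of all genes. The median of the largest difference allowed was 0.35 log2 units, a 1.27-fold difference, against 0.48 for all genes. For 23 of the 33 genes (69.7%) the leading transcript allowed less than 0.5, against 52.6% of all genes. These leading transcripts also had higher levels than most, and spread falls with level. For 3 genes (9.09%) the leading transcript allowed 1 or more, a 2-fold difference, against 17.3% of all genes, namely *Kat2b*, *Hdac7* and *Sirt5*. The SDs from read assignment of these transcripts were 0.05, 0.24 and 2.70, respectively.

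Over all 77 transcripts, 17 (22.1%) allowed a difference of 1 or more, close to the 22.8% of all 34200 transcripts. They belonged to 10 genes, 14 of them were not the leading transcript, and 10 had a level under 100. Set beside transcripts of similar level, 56 of the 77 (72.7%) had a variance above the median, which by construction holds for 50% of all transcripts. For the leading transcripts alone, set beside leading transcripts of similar level, 22 of 33 (66.7%) did. In the top 5% of variance for their level were 16 of the 77 (20.8%), and 3 of these were leading transcripts. The classes match level alone, and 75.8% of the 33 genes had several tested transcripts, against 31.8% of all genes. How much of the variance goes with that, or lies between KD and WT, was not tested.

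**Figure D3:**
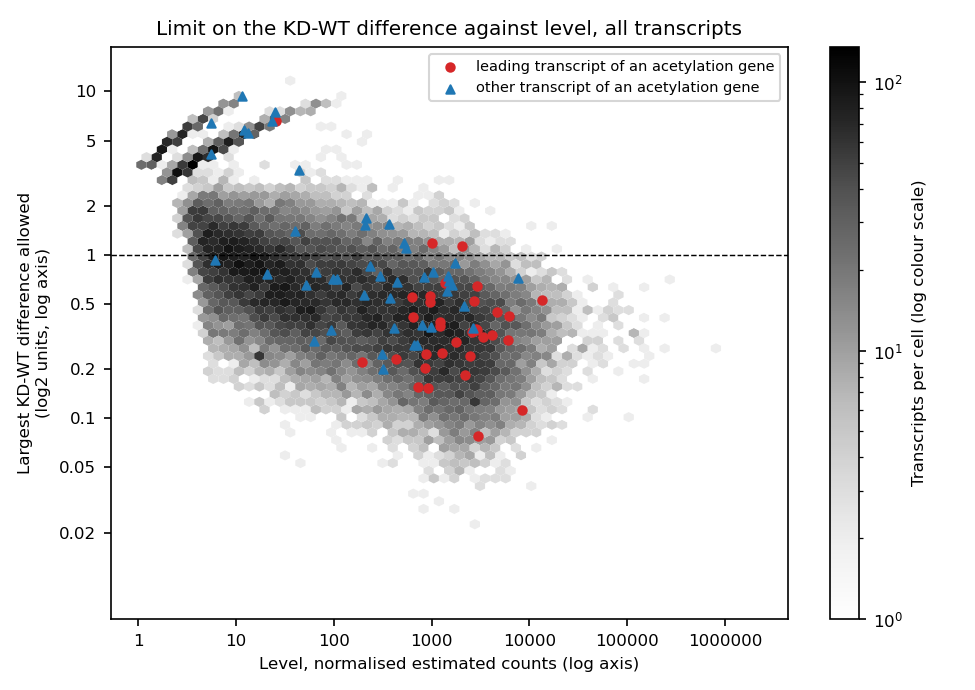
Largest KD to WT difference allowed (vertical log axis, log2 units) against level (horizontal log axis, normalised estimated counts). Grey cells hold all 34200 transcripts, circles are the 33 leading transcripts, triangles are the other 44 transcripts of the acetylation genes, and the dashed line is a difference of 1. Of the circles 30 lie under the line.

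The widest spreads went with low mean levels. A level comes from a mean of logs, so a library near 0 both lowers the level and widens the spread, and a low mean level does not show a low level in every library. A spread over 3 was found for 7 of the 77 transcripts, which had levels from 5.57 to 25.8, against 1.96% of all transcripts. They were isoforms of *Hdac4*, *Hdac7*, *Sirt1*, *Sirt3*, *Sirt5* and *Kat7*, with 2 from *Sirt5*. At such levels the 0.5 added to each count before the log bears on the value, so a limit as large as 9.37 for an *Hdac7* isoform (ENSMUST00000079838.13, level 11.5) carries little information.

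Uncertainty in assigning reads to isoforms was low for the genes with 1 tested transcript, with a median SD from read assignment of 0.03. It was 0.05 for the leading transcripts and 0.31 for the other 44. For 11 of the 77 transcripts (14.3%), against 27.7% of all transcripts, the variance from read assignment exceeded the variance over the 4 libraries. Among them were the *Sirt1* transcript without the block of 117 bases, with SDs of 2.10 from read assignment and 0.87 over libraries, and a *Kat6b* transcript (ENSMUST00000182855.7) with 1.64 and 0.68. The leading *Brd3* transcript was also among them, with 0.05 and 0.04.

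**Figure D4:**
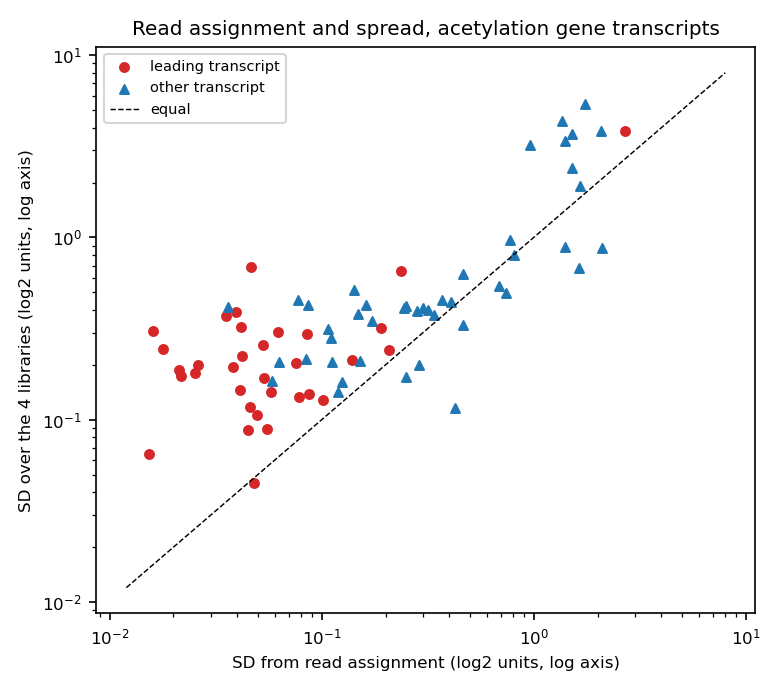
SD over the 4 libraries against SD from read assignment, both on the log2 scale and on log axes, for the 77 transcripts. Circles are leading transcripts, triangles are other transcripts, and the dashed line marks equal values. 11 transcripts lie under the line, and *Kat2b* is the circle at 0.05 and 0.69.

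Length, base composition and promoters were not used in the choice by symbol, and varied among the genes. Their leading transcripts had a median annotated length of 3043 bases, from 1416 to 10820, against 2410.0 for all genes, and a median GC content of 51.5% against 48.5%. Promoter sequences from RefSeq (GRCm38.p6), from 250 bases before to 50 after the start, were matched for 27 of the 33 genes. The ratio of observed to expected CpG was above 0.6 in 21 of the 27 (77.8%), against 59.5% of the 12868 tested genes with an entry. The letters TATAAA, sought on both strands, occurred for 2 of the 27, *Hdac8* and *Hdac9* (7.41%), against 10.9% of the tested genes. The 2 genes also had the lowest CpG ratios of the 27, 0.33 and 0.10.

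The partners of these enzymes were nearly all among the genes tested, and the 33 genes themselves had a median summed level of 2128. All 11 listed NuRD genes were tested, with a median summed level of 5677, and *Rbbp7*, a histone-binding subunit, had the highest level per kilobase (4773). The 11 SIN3 genes had a median summed level of 2722, and the 9 genes of CoREST and NCoR had 3089. All 37 listed partners of acetyltransferases were tested, with a median of 2032, from *Kansl2* with 4839 counts per kilobase to *Jade2* with 157. Of 29 other genes for acetyl readers, 28 were tested, with *Baz1b* the highest (2324 counts per kilobase) and *Dpf3* the lowest (43.5). The leading transcript allowed a difference of 1 or more for 0 of the 11 NuRD, 0 of the 11 SIN3, 1 of the 9 CoREST and NCoR, 0 of the 37 partner and 0 of the 28 reader genes, against 17.3% of all genes. Each list had a higher median summed level than all genes (221), and spread falls with level. Counting every tested transcript, 4 of 28 NuRD, 3 of 22 SIN3 and 5 of 28 CoREST and NCoR transcripts allowed 1 or more. So did 14 of 96 partner and 22 of 84 reader transcripts, against 22.8% of all transcripts.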

How the data were processed

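The authors removed adapters with BBDuk, estimated transcript counts with Kallisto and compared KD with WT in Sleuth. The index transcriptome is not given in the sources used here, and the submitters' processing notes name GRCm38. The deposited mean is on the natural log scale (estimated counts over a size factor, plus 0.5), beside variances over the 4 libraries and from repeated read assignment. Per the file headers, the other columns hold the effects, errors, p-values and q-values of the authors' own comparison in 2 tables. None of these was used, so no group test was made, although the planned design named a count model for the case of values by library. Depth by library is unknown. All levels sum to 65222063 normalised estimated counts.

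Levels are the exponential of the mean minus 0.5, summed by gene and divided by annotated length. Lengths came from GENCODE M21 by transcript identifier (98.6% with the same version, another version for 4 of the 77 transcripts). Similar level means 1 of 20 classes of all transcripts. The limit holds by algebra, so simulated data checked only the formula and not the divisor of the deposited variance. Every gene of the set is named, transcripts where they lead, hold 10% of the level or have an extreme variance, and list genes at the highest or lowest level. Genes and lists were chosen with earlier results of these data known, and other transcripts after their values were seen. Python 3.11.15, pandas 2.3.3 and numpy 2.4.6 were used.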

Additional observations from a re-analysis of the deposited data

How the results depend on the processing

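Each alternative was tried 1 at a time. The number of transcripts that allowed a KD to WT difference of 1 or more, 17 in all, was 7 when only transcripts with a level of at least 100 were kept, and 19 when the deposited variance was taken as divided by 4. The number of transcripts with a variance above the median for their level, 56 of 77, was 56 with 10 classes of level and 22 of 33 for leading transcripts alone, an alternative chosen after seeing the data that holds fewer transcripts by construction. The numbers of transcripts at 100 or more (60), of genes with a summed level of 1000 or more (25), of genes in the top 10% per kilobase (6) and of genes with a leading share of 90% or more (16) stayed within 1.5 times under their alternatives. With lengths shortened by 200 bases, 11 genes took another rank, by at most 3 places, and with only the leading transcript 26 did, by at most 7. The summed level moved by more than the spread of the leading transcript for 16 of 33 genes when only that transcript was kept. No paired analysis was possible because values of single libraries were not used, and for the same reason no library was left out in turn, no count model was fitted, and counting error has no interval here.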

Other observations

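The genes that supply acetyl-CoA and NAD, the substrates of acetylation and of sirtuins, were looked up as a list of their own. Of 11 listed genes, 10 were tested, with a median summed level of 1966 normalised estimated counts over the 4 libraries. *Acly*, which makes acetyl-CoA from citrate, was the highest with 7925 counts per kilobase, above *Brd2* with 7137. *Nmnat3*, an enzyme of NAD synthesis, was the lowest with 48.6. For 9 of the 10 genes the leading transcript allowed a KD to WT difference under 0.5 on the log2 scale, against 52.6% of all genes. For 0 of the 10 it allowed 1 or more, against 17.3% of all genes. Of their 16 tested transcripts, 1 allowed 1 or more, against 22.8% of all transcripts. The median summed level of all genes was 221, and spread falls with level.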
